A study of Mus musculus with 7 samples.

Results

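The immunity-related GTPases described here are 8 mouse genes, Irgm1, Irgm2, Igtp, Iigp1, Gm4841, Gm4951, Tgtp1 and Tgtp2, taken by symbol from the 31053 genes of the deposited matrices. They were chosen by measured values, with the difference of Iigp1 between HRO and WTO monocytes in these data already known, so in that contrast the members' monocyte values and fitted folds are a description, with no p-value. Whole bone marrow from spine, hips, femur and tibia had been lysed of red cells, marked with hashtag antibodies and sequenced with a droplet kit that reads the 3′ ends of transcripts. The 7 libraries fall into 4 pools, WBM_1 to WBM_4, which hold 20 hashtag samples. The groups are the chronic samples (HRO.5 and HRO.6, n = 2), HRO (HRO.7 to HRO.12, n = 6), HRY (n = 3), WTO (n = 4) and WTY (n = 3), with HR.7 and HR.AE as single samples. Apart from the chronic samples, the groups are the prefixes of the hashtag names. The series text calls HRO.5 and HRO.6 TET2-mutated and chronic. It gives no genotype, treatment, strain or age for the others, and the prefixes HR, WT, Y and O are not spelled out in the sources used here. Nothing in the labels says that each hashtag is a separate animal, so every p-value below measures only the spread between hashtag samples.

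Immunity-related GTPases are large GTP-binding proteins of vertebrates that interferon gamma induces in most mouse cell types. They act in cell-autonomous immunity: they load onto the vacuoles of intracellular parasites and bacteria, and disrupt them. The family has a regulatory branch, whose members keep the others inactive on the cell's own membranes, and an effector branch, whose members coat the vacuole. Irgm1, Irgm2 and Igtp (also called Irgm3) belong to the regulators. Iigp1 (Irga6), Tgtp1 and Tgtp2 (Irgb6) belong to the effectors. Gm4841 and Gm4951 are further family genes that lie beside Iigp1.

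Genes that interferons induce are known to carry short response elements near their start, so the proximal promoters were searched for the letters of the classical ones. Promoter sequence was matched for 5 of the 8 members (RefSeq, GRCm38.p6). In the 250 bases before the RefSeq transcript start, both strands were searched for the gamma-activated site TTCNNNGAA and the interferon-stimulated response element, which is GAAA, any 2 bases and GAAA again. The gamma-activated letters read the same way on both strands. The 70 bases around the matches are printed 5′ to 3′ on the gene's strand, with matched letters in capitals, because the same arrangement recurs across the 4 genes after Irgm1.
Irgm1, chr11:48871421-48871490, minus strand: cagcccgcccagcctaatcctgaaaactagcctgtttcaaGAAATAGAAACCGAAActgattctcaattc
Irgm2, chr11:58214868-58214937, plus strand: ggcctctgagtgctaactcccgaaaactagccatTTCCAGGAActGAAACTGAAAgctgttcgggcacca
Igtp, chr11:58199477-58199546, plus strand: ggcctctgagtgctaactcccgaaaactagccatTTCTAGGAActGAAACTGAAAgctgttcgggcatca
Tgtp1, chr11:48992299-48992368, minus strand: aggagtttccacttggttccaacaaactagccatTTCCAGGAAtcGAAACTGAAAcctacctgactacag
Tgtp2, chr11:49064258-49064327, minus strand: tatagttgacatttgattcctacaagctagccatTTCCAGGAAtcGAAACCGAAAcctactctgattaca

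The response element was found in 5 of 5 windows and the gamma-activated site in 4 of 5. In the 4 genes with both, the gamma-activated site comes first and the response element begins after a gap of 2 bases. Irgm1 instead holds overlapping copies of the response element and no match to the other motif. Of 32851 promoter windows of the same length, 7.02% hold the gamma-activated letters, 2.98% the response element letters and 0.332% both. The printed Igtp and Irgm2 windows share 68 of 70 bases, and those of Tgtp1 and Tgtp2 share 51 of 70. The RefSeq start used lies inside the annotated GENCODE span by 263 bases for Irgm1, 15359 bases for Irgm2 and 1926 bases for Tgtp1, so these windows belong to a start within the gene and not to the outermost one. A match is a description of the letters, not evidence that a factor binds there.

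All 8 are annotated as protein-coding (GRCm38 coordinates, GENCODE M21). On chromosome 11, Irgm1 (ENSMUSG00000046879) spans 48861968 to 48871683, Tgtp1 (ENSMUSG00000078922) 48985327 to 48994172 and Tgtp2 (ENSMUSG00000078921) 49057194 to 49064206, all on the minus strand. Farther along, Igtp (ENSMUSG00000078853) spans 58199556 to 58207591 and Irgm2 (ENSMUSG00000069874) 58199618 to 58222782, both on the plus strand, so that their annotated spans overlap. On chromosome 18, Gm4951 (ENSMUSG00000073555) spans 60212080 to 60247820, Gm4841 (ENSMUSG00000068606) 60268305 to 60273272 and Iigp1 (ENSMUSG00000054072) 60376027 to 60392634. Of the 98-base reads that the last 500 bases of the longest Tgtp1 transcript can give, 403 of 403 also occur in Tgtp2, so the split of counts between Tgtp1 and Tgtp2 is uncertain. For Igtp and Irgm2, 0 of 403 such reads are shared.

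After demultiplexing and filtering, 43024 cells were kept, with 928 to 5530 cells and 2679390 to 56015664 UMIs (unique molecules counted) per sample. Marker genes placed 36518 of them (84.88%) in classes, and each class name stands for cells that resemble the type by those markers. The 9215 cells called monocytes carried theirs: Ccr2 was found in 98.2% of them and in 18.44% of all other cells, and Fn1 in 84.69% and 6.03%. HRO.7 and HRO.8 stand apart from the other HRO samples in what follows, and both are in pool WBM_2. Between them the mean chi-square per gene in monocytes was 1.80, against 4.10 to 75.8 for the other HRO pairs. Close pairs also occurred in other groups, with 1.92 for WTY.4 and WTY.5 and 2.16 for HRY.5 and HRY.6. Whether HRO.7 and HRO.8 come from separate animals was not tested, and both were kept. Libraries WBM_3a and WBM_3b share 2078 barcodes, which touches HRO.10, HRY.5, HRY.6, WTY.4, WTY.5 and HR.7. HR.AE had 6.21% of its cells in a class and is left out of the class results. Ddx3y, a Y-linked gene, was present in 1 of 6 HRO samples, 3 of 4 WTO, 3 of 3 HRY, 2 of 3 WTY and 1 of 2 chronic samples, so the sex mix differs between groups.

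Levels are given as CPM, a gene's count scaled by the total UMIs, over the summed cells of a class in one sample. In monocytes Iigp1 and the family genes beside it were far higher in some HRO samples than in others. Iigp1 stood at 476, 464, 1.53, 56.9, 56.0 and 0.595 CPM in HRO.7 to HRO.12, against 0, 3.94, 0 and 2.82 CPM in WTO.3 to WTO.6. HRO.7 and HRO.8 were highest, HRO.10 and HRO.11 came next, and HRO.9 and HRO.12 lay within the WTO range. Iigp1 was 4.12, 2.96 and 2.49 CPM in the HRY samples, against 4.10, 0 and 0 CPM in the WTY samples. The chronic samples had 5.87 and 0.587 CPM.

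Gm4841 split the HRO samples more sharply. It had 218, 203, 0.450, 0.672, 2.89 and 0 CPM in HRO.7 to HRO.12, and no count in any WTO, HRY, WTY or chronic monocyte. Summed over monocytes it was 123 CPM in HRO, at least 209-fold above the 0.590 CPM that 3 counts over all WTO monocytes would give. HRO.7 supplied 4389 of the 5450 HRO counts. With single HRO samples left out, an alternative chosen after seeing the data, the bound was 74.5-fold without HRO.7 and 191-fold to 278-fold without any 1 of the others. Without HRO.7 and HRO.8 together it was 1.16-fold, on 13 counts. Gm4951 had 177, 163, 1.08, 34.9, 35.2 and 0 CPM in HRO.7 to HRO.12, against 1.62, 0.303, 0 and 0 CPM in WTO.3 to WTO.6. It followed Iigp1, with the same 4 HRO samples above every WTO sample. Tgtp1 reached 12.9 and 10.3 CPM in HRO.7 and HRO.8 and at most 0.630 CPM in the other HRO samples, against at most 0.303 CPM in WTO. Tgtp2 reached 18.4 and 13.4 CPM in the same samples and 0 to 3.13 CPM in the other HRO samples, against 0 to 2.42 CPM in WTO.

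The regulators had a narrower range over samples, and Irgm1 and Igtp were counted in the monocytes of every sample. Igtp was 140, 142, 21.1, 61.1, 52.6 and 13.7 CPM in HRO.7 to HRO.12, against 19.5, 26.4, 6.53 and 8.45 CPM in WTO.3 to WTO.6. The same 4 HRO samples that were high for Iigp1 lay above all WTO samples for Igtp. Irgm1 was 91.4, 92.6, 31.4, 111, 50.8 and 26.2 CPM in HRO, against 63.3, 37.0, 34.8 and 14.1 CPM in WTO. Here HRO.10 was the highest sample and the groups overlapped, with 3 of 6 HRO samples above all WTO samples. Irgm2 was 35.7, 36.6, 14.3, 27.3, 12.7 and 4.76 CPM in HRO, against 19.5, 10.9, 0 and 9.86 CPM in WTO.

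**Figure D1:**
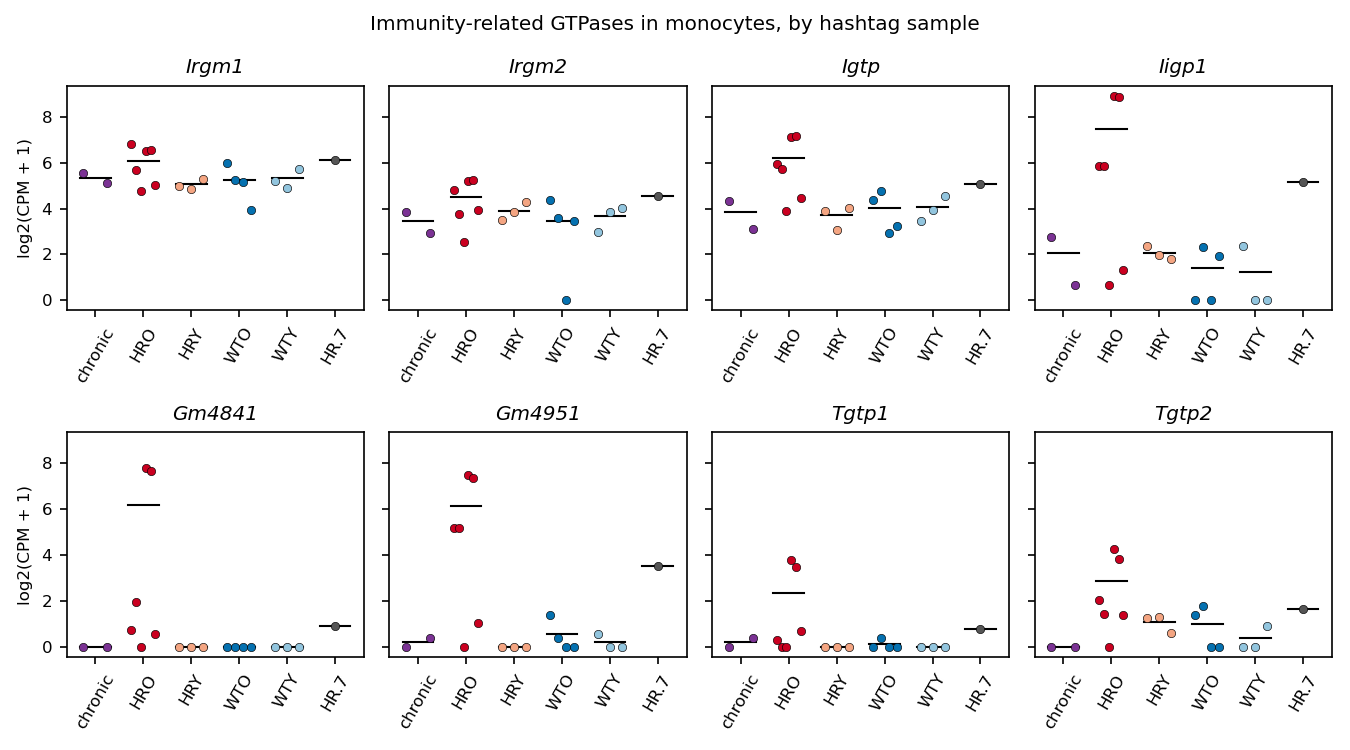
Level of each member in monocytes, as log2(CPM + 1) on the vertical axis, with 1 point per hashtag sample and a bar at the level of the group's mean CPM; groups run from chronic and HRO to HRY, WTO and WTY, with the single sample HR.7 at the right. Iigp1, Gm4841 and Gm4951 span the widest range within HRO, where HRO.7 and HRO.8 have 476 and 464 CPM of Iigp1 and HRO.12 has 0.595 CPM.

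In the model fitted to monocytes (edgeR quasi-likelihood with pool as a term), the log2 fold of HRO over WTO was 6.34 ± 1.91 (SE) for Iigp1, 8.37 ± 2.59 for Gm4951, 1.96 ± 0.62 for Igtp, 0.92 ± 0.35 for Irgm1 and 0.97 ± 0.47 for Irgm2. It was 4.57 ± 2.02 for Tgtp1 and 2.20 ± 1.02 for Tgtp2. Of all 9983 genes fitted, 9.26% passed the adjusted threshold of 0.05, and Iigp1 was the 1 of 8 members among them. Nothing is read from that count, since the contrast chose the members. Without HRO.7 and HRO.8 the log2 fold was 2.25 ± 1.13 for Iigp1, 4.80 ± 1.63 for Gm4951, 0.75 ± 0.42 for Igtp and 0.36 ± 0.25 for Irgm1. Within WBM_2, Iigp1 averaged 314 CPM in 3 HRO samples and 3.94 CPM in the WTO sample. Within WBM_4 it averaged 28.3 CPM in 2 HRO samples and 1.41 CPM in 2 WTO samples. Markers of neutrophils moved with the group too: Lcn2, S100a8 and S100a9 were higher in HRO monocytes (3 of 6 neutrophil transcripts passed, log2 2.35 ± 0.40, 1.99 ± 0.28 and 1.56 ± 0.30), while Camp, Ltf and Ngp were not called. S100a8 ranged over 1832 to 6743 CPM in HRO and 539 to 7014 CPM in WTO monocytes, and its part in the members' values was not tested.

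Gm4841 did not keep step with Iigp1 between samples. Of the summed Gm4841 and Iigp1 counts in monocytes, Gm4841 made up 31.4% in HRO.7 (exact 95% interval 30.6 to 32.2%) and 30.4% in HRO.8 (28.9 to 32%). It made up 1.17% in HRO.10 (0.241 to 3.37%), 4.90% in HRO.11 (1.61 to 11.1%) and 2.49% in HR.7 (0.813 to 5.71%). These intervals cover counting error only. Gm4951 behaved differently, with 0.372 and 0.352 counts per Iigp1 count in HRO.7 and HRO.8, 0.614 and 0.629 in HRO.10 and HRO.11, and 0.301 in HR.7.

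The share of monocytes with a UMI showed how widely the locus was detected. Each cell was thinned to 1000 UMIs, since median depth ran from 7262 to 11030.5 UMIs in HRO monocytes and from 2685 to 7295 in WTO. A UMI of Iigp1, Gm4841 or Gm4951 was then found in 53.1% of HRO.7 monocytes (exact 95% interval 50.7 to 55.4%; 93.3% without thinning) and in 51.5% of HRO.8 monocytes (46.7 to 56.2%; 92.7%). HRO.10 had 8.97% and HRO.11 had 7.5%. In the same pool as HRO.7 and HRO.8, HRO.9 had 0.446% (0.164 to 0.968%) and WTO.4 had 0.458% (0.0555 to 1.64%). HRO.12 had 0 of 139 cells, which allows up to 2.62% by the exact interval, and the WTO, HRY and WTY samples had 0 to 0.532%. The chronic samples HRO.5 and HRO.6 had 1.33% and 0%. For the regulators (Irgm1, Irgm2 or Igtp), the share was 24.3% in HRO.7, 25.1% in HRO.8, 18.8% in HRO.10, 10.6% in HRO.11, 7.21% in HRO.9 and 2.16% in HRO.12, against 1.61 to 11.7% in the WTO samples.

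**Figure D2:**
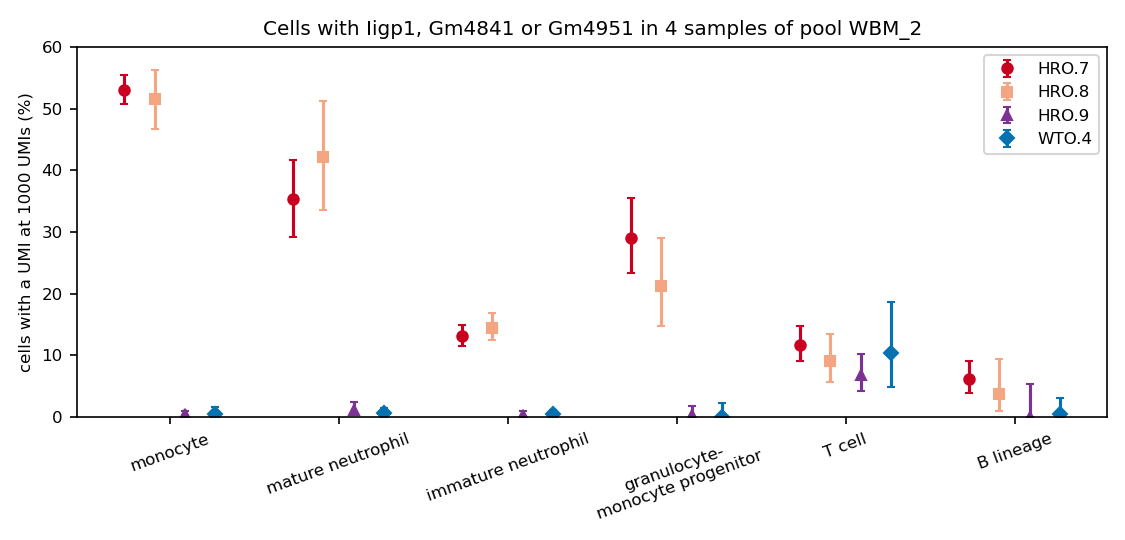
Share of cells with a UMI of Iigp1, Gm4841 or Gm4951 after thinning each cell to 1000 UMIs, by class, in HRO.7, HRO.8, HRO.9 and WTO.4 of pool WBM_2; points are single samples and bars exact 95% binomial intervals. In monocytes HRO.7 has 53.1% and WTO.4 has 0.458%, whereas in T cells HRO.7 has 11.7% and WTO.4 has 10.3%.

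Levels of a gene also differed between classes. In the WTO and WTY samples, Iigp1 was at 57.3 CPM in cells resembling hematopoietic stem and progenitor cells (HSPC; 1 sample, 12 counts), 43.1 ± 47.1 CPM in T cells (SD, n = 4) and 35.1 ± 49.6 CPM in plasmacytoid dendritic cells (n = 2), which do not separate beyond their spread. It was 3.71 ± 4.14 CPM in B-lineage cells (n = 7) and at most 1.55 CPM on average in monocytes, neutrophils, granulocyte-monocyte progenitors and erythroid cells. Igtp was 67.5 ± 42.6 CPM in T cells and 26.3 ± 2.21 CPM in plasmacytoid dendritic cells, then 25 ± 13.2 CPM in mature neutrophils, 15.3 ± 7.5 CPM in monocytes and 6.54 ± 3.34 CPM in immature neutrophils. Irgm1 was 71.3 ± 47.8 CPM in T cells and 37.9 ± 15.7 CPM in monocytes, 32.9 ± 8.94 CPM in B-lineage and 27.8 ± 10.9 CPM in erythroid cells, and 6.60 ± 3.38 CPM in immature neutrophils.

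In HRO.7 and HRO.8, Iigp1 was counted in every class with at least 20 cells. Iigp1 was 657 CPM in the 47 HSPC-like cells of HRO.7, against 57.3 CPM in the 26 of WTO.4. The other samples with such cells had 38.8 CPM in HRO.6, 49.4 CPM in HRO.9, 51.9 CPM in HRY.5 and 85.1 CPM in HR.7. The HRO.7 cells also had 394 CPM of Cxcl9 and 791 CPM of Cxcl10. Elsewhere these chemokine genes reached at most 1.35 and 6.77 CPM in this class, both in HRO.9. Whether the class holds the same cells in each sample was not tested. In macrophage-like cells, found in HRO.7 and HRO.8 in numbers over 20, Iigp1 was 428 and 561 CPM. In granulocyte-monocyte progenitors it was 205 and 177 CPM in HRO.7 and HRO.8 and 1.10 to 17.9 CPM in the other HRO samples, against 0 to 0.526 CPM in WTO. In immature neutrophils it was 65.5 and 53.8 CPM in HRO.7 and HRO.8 and at most 2.14 CPM in the other HRO samples, against 0 to 1.69 CPM in WTO.

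**Figure D3:**
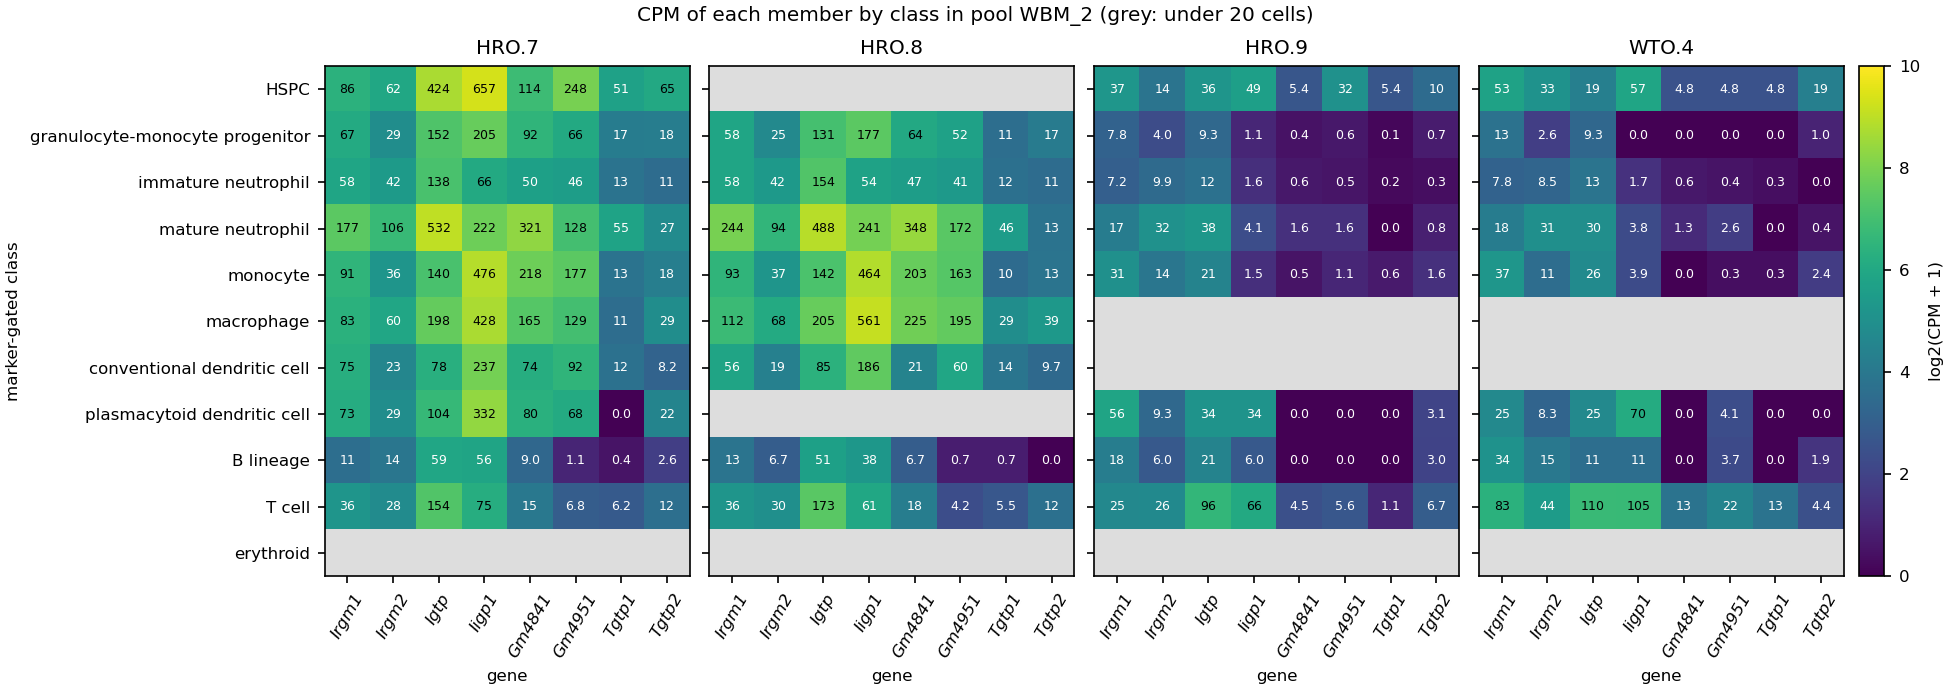
CPM of each member (columns) in each class (rows) for HRO.7, HRO.8, HRO.9 and WTO.4 of pool WBM_2, coloured by log2(CPM + 1), with the CPM printed and grey where a sample has under 20 cells. HRO.7 and HRO.8 carry Iigp1 at 476 and 464 CPM in monocytes, against 3.94 CPM in WTO.4, while T cells hold 74.6, 61.0 and 105 CPM.

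T cells gave another picture. Iigp1 was 74.6, 61.0, 66.2, 133, 27.9 and 51.0 CPM in HRO.7 to HRO.12, against 0, 105 and 52.9 CPM in WTO.3, WTO.4 and WTO.6. Here HRO.7 and HRO.8 were not the highest samples, and the groups overlapped. The fitted log2 fold of HRO over WTO was -0.57 ± 0.31 for Iigp1, 0.49 ± 0.45 for Igtp and -0.59 ± 0.47 for Irgm1, and 0 of 3 members passed (edgeR adjusted p 0.599, 0.755 and 0.697). Across all 4906 T-cell genes 0% passed, although 421 had an unadjusted p under 0.05 and DESeq2 called 1. Among classes with at least 20 cells in a sample, Ifng, the cytokine that induces the family, was highest in T cells. Natural killer cells, known as another source of it, numbered at most 16 in any sample and were not measured. T cells had 323, 264, 35.9, 70.2, 107 and 290 CPM of Ifng in HRO.7 to HRO.12, against 26.7, 22.0 and 119 CPM in WTO.3, WTO.4 and WTO.6. The Ifng fold of 1.96 ± 1.01 did not pass (edgeR adjusted p = 0.587).

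In the other classes the same samples enter as in monocytes, so the tests below are not independent of how the members were chosen. In mature neutrophils, Igtp and Irgm1 passed the test, with overlapping groups. Igtp was 532, 488, 38.0, 106, 120 and 18.4 CPM in HRO.7 to HRO.12, against 40.4, 29.9, 13.8 and 7.61 CPM in WTO.3 to WTO.6. Irgm1 was 177, 244, 17.4, 139, 64.9 and 21.8 CPM in HRO, against 0, 17.5, 7.53 and 6.52 CPM in WTO, with 5 of 6 HRO samples above all WTO samples. Both rose, Irgm1 by 3.03 ± 0.63 (log2, SE, edgeR adjusted p = 0.0138) and Igtp by 3.23 ± 0.75 (adjusted p = 0.0296), and they were 2 of 7 members fitted, where 1.5% of all 5928 genes passed. Without HRO.7 and HRO.8 neither passed, with folds of 1.59 ± 0.41 (adjusted p = 0.0503) and 1.58 ± 0.46 (adjusted p = 0.0884). Within WBM_4, Irgm1 averaged 43.4 CPM in HRO and 7.03 CPM in WTO mature neutrophils, and Igtp averaged 69.2 CPM in HRO and 10.7 CPM in WTO (n = 2 each). Leaving out HRO.11 or WTO.4 ended both calls, and leaving out WTO.5, WTO.6 or WTY.5 ended that of Igtp.

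Igtp also rose in the B lineage and in erythroid cells. In B-lineage cells it was 58.8, 51.0, 21.1 and 78.4 CPM in HRO.7, HRO.8, HRO.9 and HRO.11, against 0, 11.2, 7.85 and 8.53 CPM in WTO.3 to WTO.6, and the groups did not overlap. Its log2 fold was 2.90 ± 0.51 (edgeR adjusted p = 0.00710), as 1 of 3 members fitted, where 11.9% of all 6881 genes passed, so a call there is common. Without HRO.11 it did not pass (adjusted p = 0.138). Without HRO.7 and HRO.8 together, 1 member was fitted in this class and 0 passed, where 6.14% of all genes did. In the same class all 6 neutrophil transcripts fell (median log2 -1.39), and their part was not tested. The B-lineage cells also differed in depth and in Irf8, a transcription factor of B cells and monocytes. Their median was 11083.5, 11798.5, 4783 and 15343 UMIs in HRO.7, HRO.8, HRO.9 and HRO.11, against 759.5 to 2295 UMIs in WTO. Irf8 was 42.5, 25.1, 458 and 84.4 CPM in the same HRO samples, against 171 to 433 CPM in WTO. What these differences contribute to the Igtp fold was not tested. In erythroid cells Igtp was 99.5 and 34.9 CPM in HRO.11 and HRO.12, against 15.6, 11.1 and 8.11 CPM in WTO.3, WTO.5 and WTO.6, again without overlap. Its fold was 2.74 ± 0.48 (edgeR adjusted p = 0.00297), as 1 of 2 members fitted, where 1.37% of all genes passed. Leaving out WTO.6 ended this call (adjusted p = 0.0753). HRO.7 and HRO.8 had under 20 erythroid cells and take no part in it. Iigp1 in these cells was 78.1 and 3.15 CPM in HRO.11 and HRO.12 and 0 in all 3 WTO samples.

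In granulocyte-monocyte progenitors and immature neutrophils, 8 of 8 members were fitted and 0 passed by edgeR, where 0.403% and 2.22% of all genes passed, although all 8 had an unadjusted p under 0.05 in each class, as had 15.7% and 15.8% of all genes. Those 8 are no independent support, since Gm4841 and Gm4951 in the progenitors and Tgtp2 in immature neutrophils had no WTO count and passed the filter on low counts only through other groups. Igtp in the progenitors was 152, 131, 9.34, 29.1, 42.6 and 15.4 CPM in HRO.7 to HRO.12, against 3.86, 9.26, 5.78 and 7.53 CPM in WTO.3 to WTO.6, with no overlap (log2 fold 2.89 ± 0.77, edgeR adjusted p = 0.0950). DESeq2 called Igtp in the progenitors, where it called 1.62% of all genes, and Igtp and Irgm2 in immature neutrophils, where it called 2.9%. Over the 31 fits outside monocytes, 4 passed with HRO higher and 0 with HRO lower, where 2.83% of all gene fits in those classes passed. Without HRO.9, which leaves HRO.7 and HRO.8 as the HRO samples of WBM_2, 26 of these 31 passed, where 8.76% of all gene fits did. The 31 include the fits named above with no WTO count, and Tgtp1 in mature neutrophils, which had none either. Without HRO.7 and HRO.8 the filter on low counts left 17 fits outside monocytes. It kept 5 members in the progenitors, 3 in each neutrophil class and 1 in the B lineage. Fits beyond those entered only with HRO.7 and HRO.8 in, the samples where these members are high. Nothing is therefore read from these counts about the members.

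**Figure D4:**
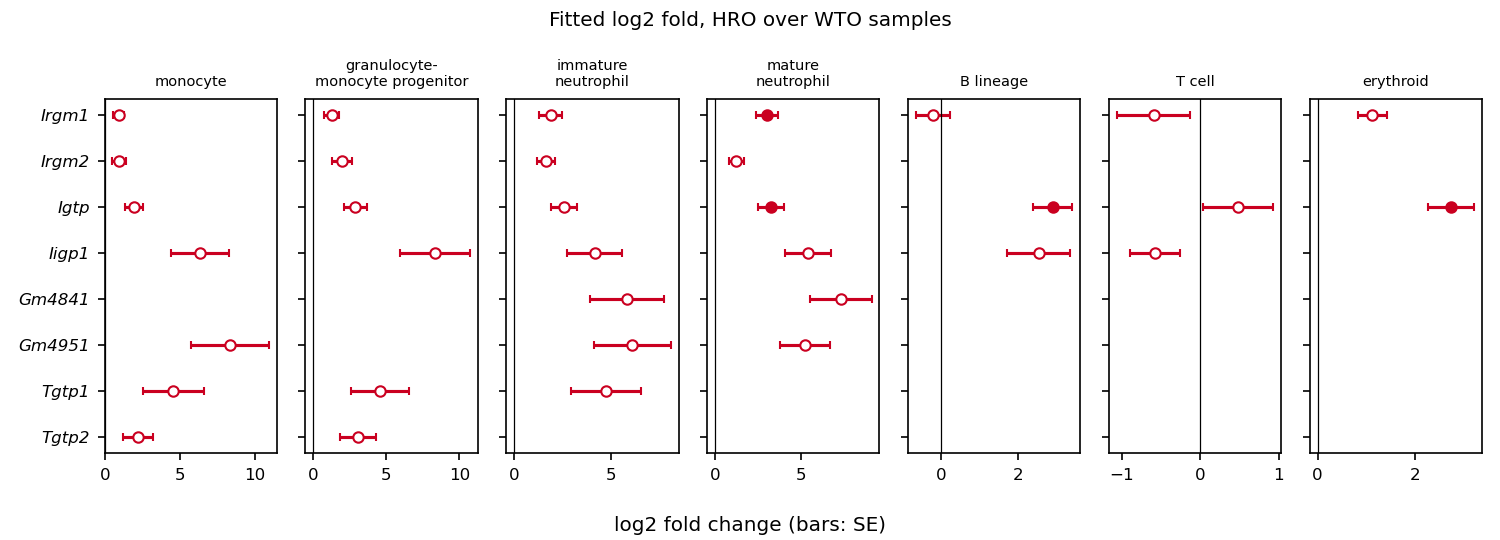
Fitted log2 fold change of HRO over WTO for each member by class, with bars for the SE and filled symbols for adjusted p under 0.05; in monocytes no test is marked, each panel has its own scale, and members with no WTO count in a class are left out. Igtp and Irgm1 in mature neutrophils, at 3.23 and 3.03, and Igtp in the B lineage and erythroid cells, at 2.90 and 2.74, are filled.

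The ratio of Gm4841 to Iigp1 changed from class to class inside one sample. In HRO.7 there were 1.44 Gm4841 counts per Iigp1 count in mature neutrophils and 0.771 in immature neutrophils, 0.458 in monocytes, 0.201 in T cells and 0.162 in B-lineage cells. HRO.8 gave 1.45 and 0.869 in mature and immature neutrophils, 0.437 in monocytes, 0.295 in T cells and 0.176 in B-lineage cells. The chemokine gene Cxcl9, which interferon gamma also induces, gave 6.88 counts per Iigp1 count in macrophage-like cells of HRO.7 and 0.0073 in plasmacytoid dendritic cells.

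**Figure D5:**
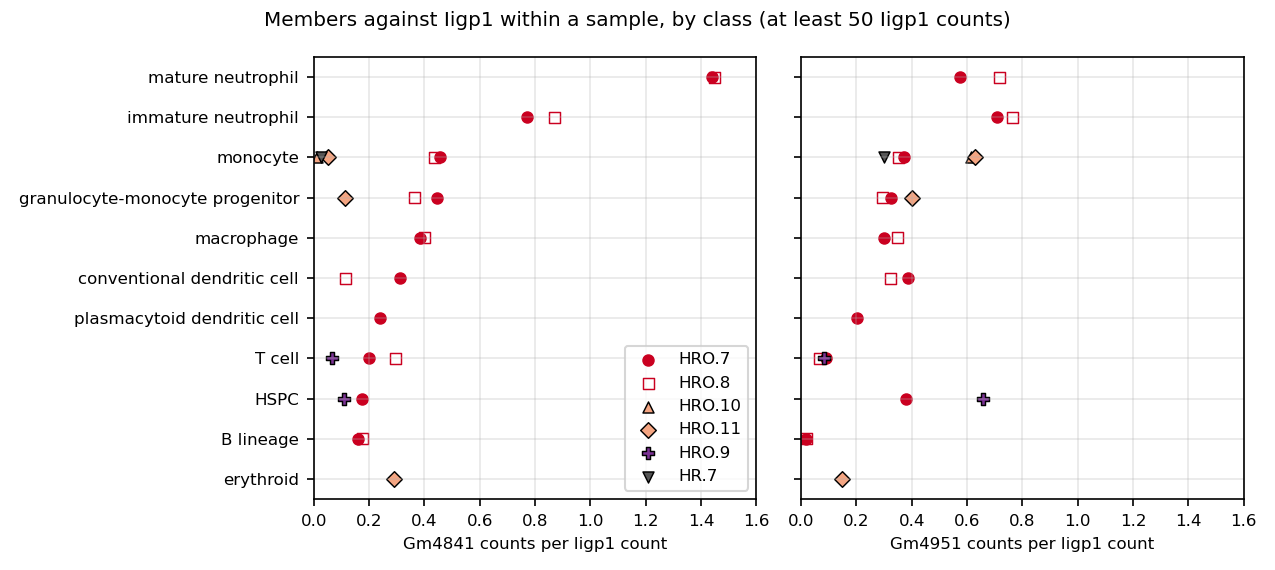
Counts of Gm4841 (left) and Gm4951 (right) per Iigp1 count, by class, for each sample with at least 50 Iigp1 counts in that class; each point is 1 sample. Gm4841 runs from 0.162 in the B lineage to 1.44 in mature neutrophils of HRO.7, while monocytes of HRO.10 and HRO.11 lie at 0.0118 and 0.0515.

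The remaining comparisons share samples with the ones above. Those with HRO monocytes reuse the HRO values known when the members were chosen, so their p-values are no independent test. Between HRO and HRY monocytes, Irgm1 averaged 67.2 ± 35.6 CPM in HRO and 32.4 ± 5.28 CPM in HRY (SD, n = 6 and 3). It rose by 1.83 ± 0.44 (log2, SE, edgeR adjusted p = 0.0249), where 4.64% of all genes passed, with 4 of 6 HRO samples above all HRY samples. Leaving out HRO.10, WTO.3 or any 1 HRY sample ended this call. Without HRO.7 and HRO.8 it stood (1.64 ± 0.29, adjusted p = 0.00159), and with Ddx3y status as a term or with no pool term it did not (adjusted p 0.150 and 0.187). That was 1 of 34 fits in this comparison, with 7 at an unadjusted p under 0.05. In the other classes 0 of 26 passed by edgeR, where 1.7% of genes passed in mature neutrophils, 1.89% in granulocyte-monocyte progenitors, 0% in the B lineage and 0.822% in immature neutrophils, with 4 at an unadjusted p under 0.05 and 1 call by DESeq2 (Irgm2 in immature neutrophils). Between HRY and WTY, 0 of 34 fits passed by edgeR and 0 had an unadjusted p under 0.05, where 0.0201% of genes passed in the progenitors, 0.0169% in mature neutrophils and 0% in the other classes. Between WTO and WTY 0 of 34 passed by edgeR, with 1 at an unadjusted p under 0.05, where 0.101% of genes passed in mature neutrophils and 0% in the other classes. DESeq2 called 0 in both. The difference of differences (HRO minus WTO against HRY minus WTY) passed in 0 of 34 fits by edgeR, where 1.18% of genes passed in monocytes, 0.0169% in mature neutrophils, 0.0201% in the progenitors, 0.0145% in the B lineage and 0.0832% in immature neutrophils. Of the 34, 5 had an unadjusted p under 0.05 and DESeq2 called 1, Irgm1 in mature neutrophils, so a larger HRO to WTO difference than HRY to WTY difference was not shown. The chronic samples against the other WBM_1 samples passed in 0 of 10 fits by edgeR, with 0 at an unadjusted p under 0.05 and 0 calls by DESeq2. Of all genes, 0.159% passed there in monocytes, 0.218% in the progenitors, 0.221% in immature neutrophils, 0.815% in the B lineage, 0.112% in erythroid cells and 0% in mature neutrophils and T cells. Igtp in monocytes was 19.1 and 7.63 CPM in the chronic samples, against 10.0 to 19.5 CPM in WTY.3, WTO.3 and HRY.4.

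Other genes of the pathway were read from lists chosen with these data known. Between HRO and WTO monocytes the median log2 fold over all genes was 0.01, and 9.26% of them passed in either direction, the share against which each monocyte count of a list is to be read. Of the guanylate-binding proteins, a related family that works with these GTPases on vacuoles, 3 of 9 fitted were higher and 0 lower (median 3.57): Gbp2b by 4.74 ± 1.32, Gbp5 by 3.57 ± 1.08 and Gbp3 by 1.61 ± 0.47 (edgeR adjusted p 0.0344, 0.0481 and 0.0407). Of 7 other family genes fitted, 0 were higher and 1 was lower, 9930111J21Rik2 by -0.84 ± 0.13 (adjusted p = 0.00112). Ifi47, another family member, had 119 ± 89.8 CPM in HRO and 41.4 ± 11.7 CPM in WTO and was not called (adjusted p = 0.117). In mature neutrophils Ifi47 rose by 3.58 ± 0.81 (adjusted p = 0.0258).

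Of 11 genes of interferon gamma signalling, 2 rose in monocytes (median 0.17). These were Irf1, an interferon-induced transcription factor, by 1.37 ± 0.37 (edgeR adjusted p = 0.0318), and Socs3, a feedback inhibitor of cytokine signalling, by 3.04 ± 0.37 (adjusted p = 0.000208). The receptor chains Ifngr1 and Ifngr2 had folds of 0.05 ± 0.21 and -0.18 ± 0.10 (adjusted p 0.944 and 0.289). Of 8 effector genes of the same cytokine, 3 rose (median 1.12), the proteasome and peptide-transport genes Psmb8, Psmb9 and Tap1, by 1.02, 0.92 and 0.98. Of 11 type I interferon genes 1 rose, close to the share of all genes that passed. It was Zbp1, by 1.35 ± 0.27 (adjusted p = 0.00580; median 0.70), and Isg15 at 1.57 ± 0.62 did not pass (adjusted p = 0.124). In mature neutrophils, where 1.5% of all genes passed, 5 of 10 type I genes rose, Zbp1 by 2.51 ± 0.44 and Isg15 by 2.15 ± 0.44 among them. In immature neutrophils, where 2.22% of all genes passed, Cmpk2, Ifit1, Oasl2, Rtp4, Usp18 and Zbp1 were called as higher. The 10 autophagy genes that conjugate the ubiquitin-like proteins needed for loading these GTPases gave 0 calls and a median of 0.17.

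Across 19 samples and 5896 genes, the monocyte genes whose level, as log2(CPM + 1), was most like that of the summed members included Gbp5 (Pearson r = 0.957), H2-K1 (0.929), Gbp2 (0.927), Fgl2 (0.917), Ifi47 (0.913), Fam26f (0.912), Gbp2b (0.910), H2-T22 (0.900) and Ly6a (0.897). These are descriptions over samples that share pools and depth, and HRO.7 and HRO.8 lie far from the rest. Among the members, r ran from 0.498 between Irgm2 and Tgtp1 to 0.968 between Gm4841 and Tgtp1.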

How the data were processed

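The deposited matrices hold raw UMI counts per gene and barcode. Per the file headers the matrices come from software version 3.0.0 (WBM_1) and 3.1.0 (the others), and the submitters' processing notes name mm10, Cell Ranger, Seurat and bcl2fastq. Hashtag counts, also deposited, were assigned with HTODemux (Seurat 5.3.0, positive quantile 0.99), which also removed hashtag doublets; no other doublet caller was run. The lower-UMI copy of each barcode shared by WBM_3a and WBM_3b was dropped. Cells with under 300 genes or at least 10% mitochondrial counts were dropped. Cells took the class whose marker score led by 0.1; 4174 cells lay within 0.05 of that limit. Counts were summed per sample and class (at least 20 cells) and fitted with edgeR 4.0.16 (TMM, filterByExpr, quasi-likelihood, pool as a term), with Benjamini-Hochberg adjustment over all genes. The filter on low counts kept 8 members in monocytes, granulocyte-monocyte progenitors and immature neutrophils, 7 in mature neutrophils, 3 in B-lineage and T cells and 2 in erythroid cells. On simulated counts of 9983 genes for HRO against WTO monocytes, 96.9% of 200 genes changed 4-fold were recovered, with 6.4% false calls. The simulation changed every HRO sample alike and held no pool effect. The real HRO samples differed widely in the members, so these rates do not describe recovery of the members. Within-pool values are means, and floors are 3 counts over a group. All members were named in monocytes; elsewhere those that passed, or the 3 largest folds; of each list up to 4 genes plus role-defining genes; and the 10 genes most like the members (at least 20 CPM, 1 added before log2), of which 1 is not reported here. The members and lists were chosen with earlier results of these data known.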

Additional observations from a re-analysis of the deposited data

Results flagged for a closer look

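HR.7, a single hashtag sample that the labels place in no group, was set against every WTO and WTY sample. Of 29 pairs of a member and a class with over 3 counts in HR.7, 15 had the lower end of the Poisson interval (95%) above the highest of those samples, and 13.6% of all such pairs of a gene and a class did. The rule takes the reference values as exact, so a member with no count in them meets it automatically. That was so for Gm4841 in monocytes and for Iigp1, Tgtp1, Tgtp2 and Gm4951 in erythroid cells. In granulocyte-monocyte progenitors 0 of 3 members met it and in T cells 0 of 4, where 4.39% and 12.2% of all genes did. In monocytes it had 35.0 CPM of Iigp1, 32.3 CPM of Igtp, 10.5 CPM of Gm4951 and 0.893 CPM of Gm4841, 4 of 8 members where 4.83% of all genes met the rule. In immature neutrophils it had 32.1 CPM of Irgm1, 20.9 CPM of Irgm2 and 19.3 CPM of Iigp1, and in mature neutrophils 104 CPM of Igtp, where 7.33% and 2.01% of all genes did. In erythroid cells, compared with 4 samples, 39.6% of all genes met the same rule, so the 7 members there are read against that share. HR.7 had 87.0 CPM of Irgm1, 31.7 CPM of Igtp, 8.66 CPM of Irgm2, 5.59 CPM of Tgtp2, 2.67 CPM of Iigp1, 2.35 CPM of Tgtp1 and 0.405 CPM of Gm4951.

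In 64 sets of samples examined, 3 single samples lay far from the rest of their group, and chance gives about 1 in 20. Among HRO T cells, HRO.10 had 23.4 CPM of Gm4951 and HRO.12 had 62.7 CPM of Irgm2, each the highest of 6. Among HRO B-lineage cells, HRO.8 had 0.0 CPM of Tgtp2, the lowest of 4.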

How the results depend on the processing

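Of the HRO to WTO fits, 5 of 39 passed. These include the 8 monocyte fits whose contrast chose the members, so the counts describe how the fits move and are no evidence about the members. Outside monocytes 4 of 31 passed, where 2.83% of all gene fits did. With DESeq2 6 passed (3.03% of all gene fits) and with Ddx3y status 15 (2.32%). Without HRO.7 and HRO.8, where the filter kept fewer members, 2 of 17 passed (1.89%). Leaving out 1 sample gave 1 without HRO.11 (1.27%) to 26 without HRO.9 (8.76%). Over all classes the count was 9 with DESeq2, 39 of 56 with no filter on low counts, 2 of 22 without HRO.7 and HRO.8, 2 with no pool term, 19 with pool and Ddx3y status as terms, 5 with hashtags normalised within each cell, 5 at a mitochondrial limit of 20% and 7 of 34 with a stricter gate. Leaving out 1 sample gave 1 to 34: 34 without HRO.9, 12 without HRO.12, 3 without WTY.5, 2 without WTO.4 or WTO.6, and 1 without HRO.11. Of the HRO to HRY fits, 1 of 34 passed, against 2 with DESeq2, 13 with no filter, 8 of 17 without HRO.7 and HRO.8, 3 with no pool term and 0 with Ddx3y status; leaving out 1 sample gave 0 to 8, with 8 without HRO.9. The difference of differences gave 0 calls, against 1 with DESeq2, 14 with no filter and 0 to 5 on leaving out 1 sample, 5 without HRO.9. For the HRO to HRY fits, the difference of differences and the counts over all classes, the share of all genes under each setting is not given. Nothing is read from those counts about the members. The other comparisons gave 0 under every setting run. The cause was not tested. The log2 fold of Tgtp1 in HRO over WTO monocytes, 4.57, was -0.165 with DESeq2. In the B lineage Igtp was not called without HRO.11, and no member was called without HRO.7 and HRO.8 together. Igtp in mature neutrophils was not called with DESeq2, no pool term or Ddx3y status, nor without HRO.11, WTO.4, WTO.5, WTO.6 or WTY.5; Irgm1 there was not called with no pool term, nor without HRO.11 or WTO.4; Igtp in erythroid cells was not called with no pool term, Ddx3y status or a stricter gate, nor without WTO.6. Same-numbered samples correlated at -0.604 to 0.481, and at 0.481 and 0.45 where they shared a pool. Number and pool cannot be told apart here, so whether the numbers pair samples remains unknown. The replicate block gave 0 calls of 12 fits for HRY to WTY and 0 of 12 for WTO to WTY. Thinning to 2000 UMIs gave shares of 68.5% in HRO.7, 69.0% in HRO.8, 14.4% in HRO.10 and 0.301% in HRO.9.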

Other observations

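Over all kept cells of a sample, Iigp1 stood at 273 CPM in HRO.7, 194 CPM in HRO.8, 39.2 CPM in HRO.10, 29.7 CPM in HRO.11, 6.46 CPM in HRO.12 and 5.58 CPM in HRO.9, against 0.342 to 5.73 CPM in the WTO samples. Monocytes gave 62.7% of the Iigp1 counts of HRO.7 from 32% of its cells, and 67.2% of those of HRO.10 from 27.1% of its cells. In HRO.11 they gave 18.7% from 10.4%. In WTO.4 they gave 11.5% from 12.7%. Depth differs between classes: the median over all cells of HRO.10 was 3576.5 UMIs, below that of monocytes in every HRO sample. These shares of cells are not shares of UMIs and were not adjusted for depth.

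HR.AE, of which 6.21% of cells fell in a class, had 15.3 CPM of Irgm1, 9.26 CPM of Igtp and 1.30 CPM of Iigp1 over all its cells.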
